A study of Mus musculus with 6 samples.

Results

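The chains of the interferon and interleukin-10 (IL-10) receptors, with the kinases JAK1 and TYK2, were followed in MLL-AF9 leukemia cells after activation of p53 by DS-5272. The 8 genes were taken by name: Ifnar1 and Ifnar2 for the type I interferon receptor, Ifngr1 and Ifngr2 for the interferon-gamma receptor, Il10ra and Il10rb for the IL-10 receptor, and the kinase genes Jak1 and Tyk2. They are 8 of 26082 names in the expression table, and all 8 were among the 11130 that averaged 1 FPKM or more and were tested. FPKM (fragments per kilobase of transcript, scaled to the mapped fragments of the library) is a level per transcript length, so different genes can be set side by side on it.

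Interferons and IL-10 bind heterodimeric receptors of the class II cytokine receptor family, which have no kinase activity of their own. JAK kinases bound to the inner part of each chain phosphorylate the receptor and then STAT factors, which enter the nucleus. Type I interferon acts through TYK2 on IFNAR1 and JAK1 on IFNAR2 to activate STAT2 with IRF9 and other STAT factors. Interferon-gamma acts through JAK1 on IFNGR1 and JAK2 on IFNGR2, and IL-10 acts through JAK1 on IL10RA and TYK2 on IL10RB to activate mainly STAT3. In leukemia cells, as in other myeloid cells, these receptors set which of these cytokines a cell can sense.

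RNA-Seq was performed on 6 samples of bone marrow leukemia cells from leukemic C57BL/6J mice, 3 after vehicle and 3 after 80 mg/kg of DS-5272 by mouth, and cells were taken 24 h after the dose. DS-5272 blocks the binding of p53 to MDM2, the ubiquitin ligase that keeps p53 low. Both groups carried the same model, in which c-Kit+ bone marrow progenitors were transduced with a retrovirus for the MLL-AF9 fusion oncogene and serially transplanted, so all samples derive from such passaged cells. The labels name no Trp53 genotype of the progenitors and no age of the mice. Sorting is described for the study in general but not stated for these libraries. The labels do not state that each sample came from a separate mouse, so p-values measure only the spread between these 3 samples per group, which may be technical.

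The identity of the cells and the depth of the libraries set the limits of these values. Depth, estimated from the steps of low FPKM values, was 34700000 to 43000000 fragments in vehicle samples and 23200000 to 32100000 in DS-5272 samples, and the FPKM of all genes summed to 445316 to 501241 and to 499229 to 661184. Meis1 and Pbx3, homeobox genes of the MLL-AF9 leukemia program, were expressed in all samples, at 75.2 ± 7.97 and 132 ± 4.85 FPKM in vehicle (SD, n = 3) and 90.2 ± 20.4 and 142 ± 15 with DS-5272. Of the other genes of that list with an entry, Myb was at 210 ± 14.5 and 174 ± 21.4 FPKM (limma, adjusted p = 0.116, or 0.037 when the replicate number was a block). Mef2c was at 0.17 ± 0.11 and 1.92 ± 0.48 (limma, adjusted p = 0.0031) and reached the mean of 1 FPKM for testing only through its DS-5272 samples. Mecom was listed at 0 in all samples. Hoxa7, Hoxa9 and Hoxa10 of that list stood in entries joined with other genes and were not assessed. Of 12 myeloid identity genes, 7 were higher and 4 lower with DS-5272, among them Lyz2, from 1002 ± 120 to 7264 ± 1396 FPKM, and the granule genes Mpo, from 228 ± 92.8 to 6.40 ± 5.02, and Elane, from 1835 ± 276 to 325 ± 103 (adjusted p = 0.00068, 0.0014 and 0.0017 from limma). Markers of NK cells summed to 0.683 to 1.49 FPKM in vehicle and 2.55 to 4.54 with DS-5272, with 7 of 8 genes under 1 FPKM in every sample, and T-cell markers to 0.752 to 0.872 and 1.27 to 4.14. B-cell markers summed to 4.52 to 5.37 and 3.52 to 4.58, megakaryocyte markers to 2.62 to 2.91 and 4.96 to 8.19, and plasmacytoid dendritic-cell markers to 88.0 to 125 and 154 to 258, where Siglech was at or under 0.01 FPKM in every sample. Most of the plasmacytoid sum was Bst2, also counted below as a type I interferon readout, at 69.6 ± 10 and 160 ± 47.7 FPKM. Tcf4 was at 32.7 ± 9.81 and 36.3 ± 7.07 and did not pass (adjusted p = 0.561 from limma). Erythroid markers summed to 2.52 to 4.68 and 12.7 to 146, and markers of stroma and endothelium to 29 to 60 and 73.4 to 112. Most of the stroma and endothelium sum was Pecam1, at 37.9 ± 18.1 and 83.9 ± 22 FPKM. Col1a1 was at 1.86 ± 0.80 and 4.06 ± 1.71, and Cdh5, Kdr and Col1a2 were at or under 0.08 FPKM in every sample. Markers of resident macrophages, 5 of 9 of which were higher, summed to 77.5 to 134 and 287 to 527 FPKM. All these marker sums except that of B cells were higher in every DS-5272 sample than in any vehicle sample, and their part in the results below was not tested. In bulk samples, fewer or more cells of a type and less or more RNA per cell cannot be told apart.

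By limma at an adjusted p under 0.05, 6 of the 8 genes were higher with DS-5272 and none was lower, and all 8 fold changes were above 0. The 6 were Ifnar1, Ifnar2, Ifngr2, Jak1, Tyk2 and Il10ra, and in each of them the lowest DS-5272 sample was above the highest vehicle sample. Over all tested genes 24.2% were called higher and 22% lower, and 32.1% had groups that did not overlap with DS-5272 above. Their median log2 fold change was 0.73, against 0.04 for all tested genes. Ifngr1 and Il10rb did not pass the test, with log2 fold changes of 0.34 ± 0.14 (SE) and 0.37 ± 0.23 and adjusted p = 0.088 and 0.224 from limma. The deviations of same-numbered samples correlated by 0.66, 0.21 and 0.43, but those of vehicle 2 and DS-5272 3 also did, by 0.34. The labels name no pairing, so the block below rests on these same values. With the replicate number as a block all 8 genes were called higher, where 30.3% of all tested genes were. Each of the 8 genes was higher in all 3 same-numbered pairs. The share of all tested genes with this trait was not counted. It is at least the 32.1% whose groups did not overlap with DS-5272 above. When samples were rescaled to a common FPKM total, the median of all genes moved to -0.19 and that of the 8 genes to 0.46. There 5 of the 8 genes were called higher, as were 1713 of all 11130 tested genes.

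**Figure D1:**
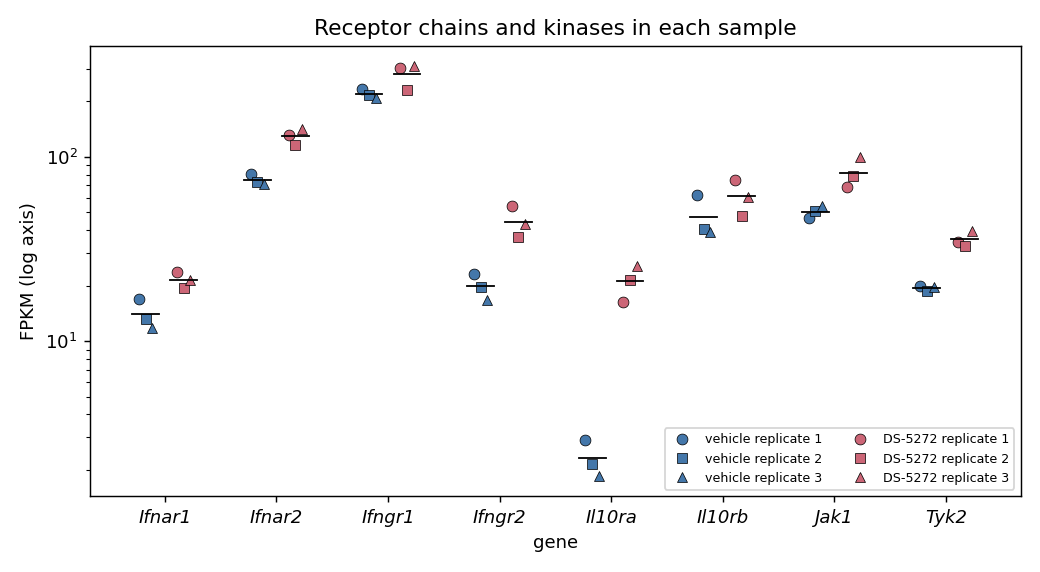
FPKM of the 8 genes in each sample on a log axis, with vehicle in blue, DS-5272 in red, a marker shape for each replicate number and a horizontal line at each group mean. The groups are apart for 6 genes and overlap for Ifngr1 and Il10rb, and Il10ra moves from 2.31 to 21.1 FPKM on average.

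Both chains of the type I interferon receptor were higher with DS-5272. Ifnar2, the chain that binds interferon with high affinity and carries JAK1, measured 80.9, 72.8 and 71 FPKM in the vehicle samples and 131, 116 and 141 FPKM in the DS-5272 samples, always in the order of replicates 1, 2 and 3. The groups were well apart, with means of 74.9 ± 5.27 and 129 ± 12.8 FPKM (SD, n = 3), a 1.72-fold difference. Its log2 fold change was 0.77 ± 0.11 (SE, limma, adjusted p = 0.0040). Ifnar1, the chain that carries TYK2, was at 16.9, 13.2 and 11.8 FPKM in vehicle and at 23.6, 19.5 and 21.5 with DS-5272. Every treated sample was above every vehicle sample, by a narrower margin than for Ifnar2. The means were 14.0 ± 2.63 and 21.5 ± 2.04 FPKM, a 1.54-fold difference, and the log2 fold change was 0.60 ± 0.15 (SE, limma, adjusted p = 0.017). The call for Ifnar1 was lost on a common upper quartile (0.47, adjusted p = 0.066 from limma) and on a common total (0.35, adjusted p = 0.219), and without vehicle replicate 2 (0.57, 0.067) or 3 (0.50, 0.064).

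Of the interferon-gamma receptor, Ifngr2 was higher with DS-5272 and Ifngr1 did not pass the test. Ifngr1, the ligand-binding chain that carries JAK1, was the highest of the 8 genes in every sample, at 234, 216 and 208 FPKM in vehicle and 303, 231 and 309 with DS-5272. DS-5272 replicate 2 lay inside the vehicle range, while replicates 1 and 3 were above it. The means were 219 ± 13.1 and 281 ± 43.7 FPKM, a 1.28-fold difference. The block gave the same log2 value of 0.34 with an adjusted p of 0.042 from limma, leaving out DS-5272 replicate 2 gave 0.48 (adjusted p = 0.022), and quantile normalization gave -0.03 (adjusted p = 0.898). Ifngr2, the signalling chain that carries JAK2, was at 23.1, 19.6 and 16.8 FPKM in vehicle and 53.9, 36.5 and 42.9 with DS-5272. These groups did not overlap, and the means of 19.8 ± 3.13 and 44.4 ± 8.83 FPKM differed 2.24-fold. The change of 1.12 ± 0.18 on the log2 scale (adjusted p = 0.0047 from limma) was the second largest of the 8. Among all tested genes, Ifngr2 stood at percentile 60.9 in vehicle and 78.9 with DS-5272, while Ifngr1 stood at 97.3 and 97.1.

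The ligand-binding chain of the IL-10 receptor had the largest change of the 8 genes. Il10ra was at 2.90, 2.15 and 1.86 FPKM in vehicle and at 16.3, 21.4 and 25.5 with DS-5272. The lowest treated sample was thus well above the highest vehicle sample, and the gene moved from percentile 11.2 to 60.7 among the tested genes. The means of 2.31 ± 0.54 and 21.1 ± 4.58 FPKM differed 9.14-fold, with a log2 fold change of 2.73 ± 0.19 (SE, limma, adjusted p = 0.00068). The number of fragments behind Il10ra was estimated at 250 in the sample with the fewest. Il10rb, the accessory chain that also serves interleukin-22 and interferon-lambda, was at 62.3, 40.5 and 39.3 FPKM in vehicle and 75.0, 47.9 and 60.1 with DS-5272. Replicate 1 was the highest in both groups, and the groups overlapped, with means of 47.3 ± 13 and 61 ± 13.6 FPKM. Within same-numbered pairs Il10rb was 1.20, 1.18 and 1.53 times higher with DS-5272, and the adjusted p with the block was 0.035 from limma.

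Il10ra can be set beside the resident macrophage markers, since macrophages express this receptor. C1qa, a complement gene of macrophages, was at 1.33, 0.72 and 2.15 FPKM in vehicle and 38.4, 6.92 and 6.64 with DS-5272, and Cd5l, a secreted macrophage protein, at 1.30, 0.24 and 1.64 and at 61.7, 1.76 and 4.43. Both were highest in DS-5272 replicate 1, where Il10ra was the lowest of the treated samples. Without that sample the log2 fold change of Il10ra was 2.89. Adgre1, which encodes F4/80, had the same order as Il10ra among treated samples, at 59.8, 79.1 and 116 FPKM against 16.7, 17.6 and 23.3 in vehicle. The FPKM sum of all genes had this order too. Hmox1, another gene of that list, was nearly level in treated samples, at 104, 99.7 and 101 FPKM against 17, 16 and 18.3 in vehicle. Of the myeloid identity genes, Lyz2 had the order of Il10ra among treated samples, at 6108, 6870 and 8815 FPKM. Csf1r did not, at 104, 111 and 108 FPKM. The parts of macrophages and of myeloid maturation in the values of Il10ra were not tested.

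Both kinases were higher with DS-5272. Tyk2 was at 20, 18.8 and 19.6 FPKM in vehicle and 34.6, 32.9 and 39.4 with DS-5272. The vehicle samples were nearly level and the treated samples were all above them, with means of 19.5 ± 0.61 and 35.6 ± 3.36 FPKM, a 1.83-fold difference. The log2 fold change was 0.84 ± 0.10 (SE, limma, adjusted p = 0.0024). Jak1 was at 46.5, 50.6 and 53.9 FPKM in vehicle and 68.1, 78.4 and 99.3 with DS-5272, again without overlap. Its means of 50.3 ± 3.71 and 81.9 ± 15.9 FPKM differed 1.63-fold, with a log2 fold change of 0.68 ± 0.15 (SE, limma, adjusted p = 0.013). Unlike the chains of chromosome 16, Jak1 was lowest in replicate 1 of each group, and so was the FPKM sum of all genes. On a common total the log2 fold change of Jak1 was 0.41 ± 0.09 (SE).

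The order of levels in vehicle was Ifngr1, then Ifnar2, then Jak1 and Il10rb, then Ifngr2, Tyk2 and Ifnar1, and Il10ra last. Jak1 and Il10rb overlapped over the vehicle samples, as did Ifngr2 with Tyk2 and, by a small margin, with Ifnar1. With DS-5272 the range of Il10ra, 16.3 to 25.5 FPKM, overlapped that of Ifnar1, 19.5 to 23.6, and that of Ifngr2, 36.5 to 53.9, overlapped those of Tyk2 and Il10rb.

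**Figure D2:**
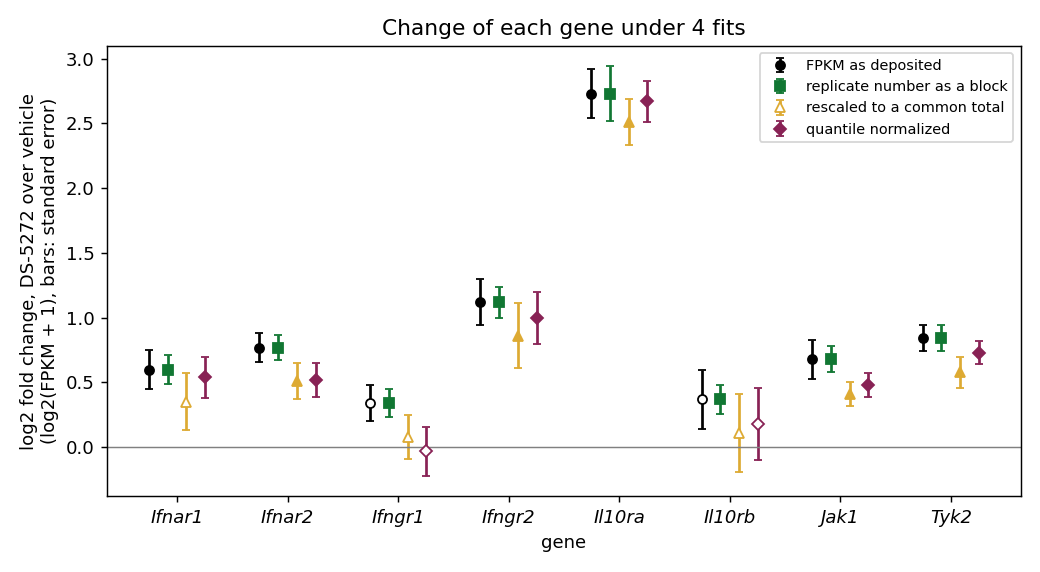
Log2 fold change of DS-5272 over vehicle on the log2(FPKM + 1) scale for each gene, with standard errors as bars, for the values as deposited, with the replicate block, on a common total and after quantile normalization. Filled symbols have an adjusted p under 0.05 and open symbols do not, and Ifngr1 under quantile normalization is the single value below 0.

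Levels of partner genes were then compared within each sample, which does not depend on the scaling between samples. Ifngr1 exceeded Ifngr2 by 10.1, 11 and 12.4 times in the vehicle samples and by 5.63, 6.33 and 7.21 times in the DS-5272 samples. The groups did not overlap, and the log2 ratio went from 3.48 ± 0.15 to 2.67 ± 0.18 (SD, n = 3), a difference of -0.81 (exact permutation test, two-sided, p = 0.1). Il10rb exceeded Il10ra by 21.5, 18.8 and 21.1 times in vehicle and by 4.59, 2.24 and 2.36 times with DS-5272. The log2 ratio of Il10ra to Il10rb went from -4.35 ± 0.10 to -1.53 ± 0.58, a difference of 2.82 (exact permutation test, p = 0.1). Ifnar2 exceeded Ifnar1 by 4.79, 5.54 and 6.01 times in vehicle and 5.54, 5.92 and 6.57 times with DS-5272. These ranges overlapped, and the log2 ratio of Ifnar1 to Ifnar2 differed by -0.14 (exact permutation test, p = 0.5). Jak1 exceeded Tyk2 by 2.33, 2.69 and 2.75 times in vehicle and 1.97, 2.38 and 2.52 times with DS-5272, with overlap and a log2 difference of -0.18 (exact permutation test, p = 0.3). With 3 samples against 3 the exact permutation test cannot go below p = 0.1, and after adjustment over the 4 ratios the values were 0.2 for the gamma and IL-10 receptors, 0.5 for the type I receptor and 0.4 for the kinases. Within same-numbered pairs each of the 4 ratios moved in its direction in all 3 pairs, and the paired exact permutation test gave p = 0.25 for each, the smallest it can give.

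**Figure D3:**
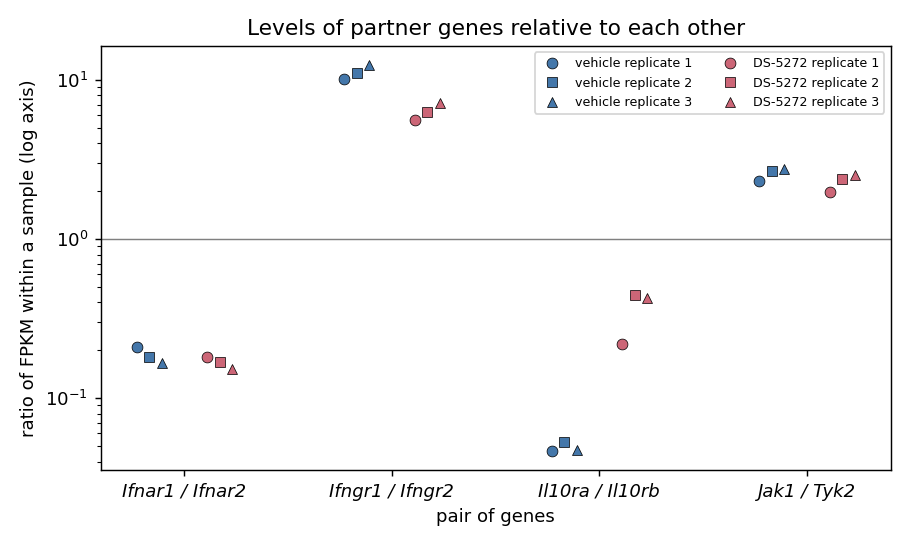
Ratio of FPKM between partner genes within each sample on a log axis, with vehicle in blue and DS-5272 in red and a line at a ratio of 1. The groups are apart for the gamma receptor, at 10.1 to 12.4 against 5.63 to 7.21, and for the IL-10 receptor, and overlap for the other pairs.

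The cluster on chromosome 16 holds 4 of the 6 receptor chains. In the GENCODE annotation of GRCm38 they lie on the plus strand within 192841 bases, in the order Ifnar2 (chr16:91372783-91405589), Il10rb (chr16:91406164-91425834), Ifnar1 (chr16:91485238-91507441) and Ifngr2 (chr16:91547072-91565623). Only 574 bases lie between Ifnar2 and Il10rb, and the annotated gene Gm21970 has exons that overlap both. Ifngr1 is at chr10:19591949-19610229 on the plus strand, and Il10ra at chr9:45253837-45269149, Tyk2 at chr9:21104068-21131243 and Jak1 at chr4:101152367-101265282 are on the minus strand. Exons of Tyk2 overlap the antisense gene 1700084C06Rik and those of Jak1 overlap Raver2, which was at 0.10 FPKM or less in every sample. No source used here says whether fragments were assigned by strand, and these values can hold fragments of the overlapping gene.

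Neighbours of the cluster moved in both directions. Of 11 other protein-coding genes whose annotated span reached within 200 kb of the cluster, 6 were tested, of which 2 were higher, 3 lower and 1 was not called. Atp5o is among them by its long span, while its start lies 554 kb from that of Ifnar2. Tmem50b, which starts beyond Ifngr2, was at 27.7, 27.2 and 29.9 FPKM in vehicle and 58.2, 49.4 and 42.2 with DS-5272, a log2 difference of 0.79 ± 0.13 (limma, adjusted p = 0.0056). Son, which encodes a splicing cofactor, rose with a log2 value of 0.49 ± 0.15 (adjusted p = 0.038). Gart, an enzyme of purine synthesis, fell by 1.20 on the log2 scale, Donson, a replication factor, by 0.79 and Atp5o, a subunit of the ATP synthase, by 0.38 (adjusted p = 0.017, 0.0062 and 0.018 from limma). Cryzl1 was at 0.13.

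**Figure D4:**
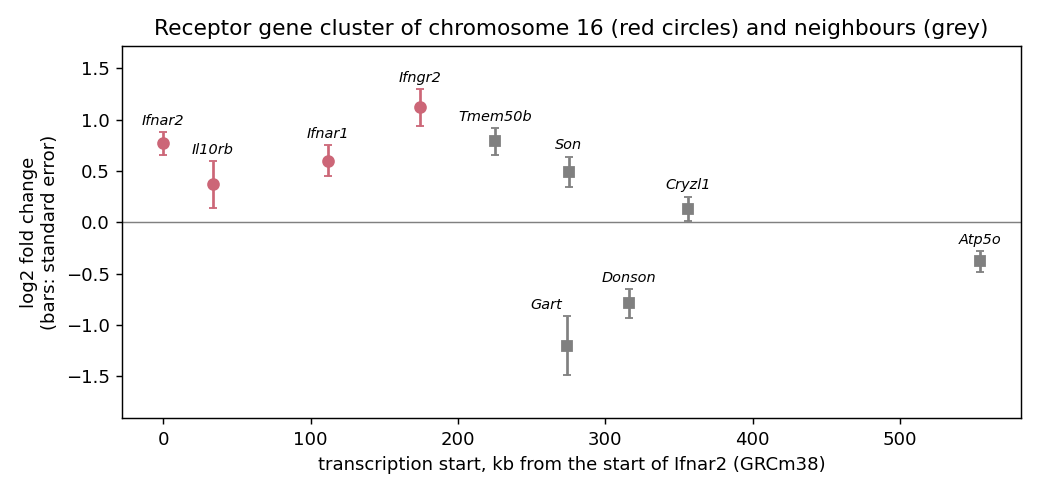
Log2 fold change with its standard error for the 4 receptor genes of chromosome 16 (red circles) and the 6 tested neighbours (grey squares), against the distance of each transcription start from that of Ifnar2 in kb. The receptor genes lie between 0.37 and 1.12, and the neighbours lie between -1.20 and 0.79.

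RefSeq promoters of GRCm38.p6, from 250 bases before to 50 after the start, were found for 6 of the 8 genes, without Il10ra and Il10rb, and were searched on both strands for 4 patterns. The pattern TTCNNNGAA, in the form bound by STAT dimers, was in 2 of the 6, Ifnar1 and Ifnar2, and in 8.3% of 32851 promoters of that length. GGGCGG, the core bound by Sp1, was in all 6, against 35.7%. A pair of GAAA boxes with 2 bases of any kind between them, in the form bound by IRF factors, was in 0 of the 6 against 3.44%, and the p53 half-site was in 0 against 8.36%. A match is a description of the letters, and binding was not measured. The promoter bases of the 3 called chains of the cluster are given because these genes lie in the same cluster and were all called higher, with TTCNNNGAA in capitals for Ifnar1 and Ifnar2 and GGGCGG in capitals for Ifngr2. All run 5′ to 3′ and end at the base before the start, except that of Ifnar1, which runs 4 bases past it. The match in Ifnar1 covers the start, from -5 to 3, and that in Ifnar2 lies from -214 to -206. The 4 matches in Ifngr2 lie from -57 to -20, and 2 of them share a base.
Ifnar1, chr16:91484965-91485218, + strand: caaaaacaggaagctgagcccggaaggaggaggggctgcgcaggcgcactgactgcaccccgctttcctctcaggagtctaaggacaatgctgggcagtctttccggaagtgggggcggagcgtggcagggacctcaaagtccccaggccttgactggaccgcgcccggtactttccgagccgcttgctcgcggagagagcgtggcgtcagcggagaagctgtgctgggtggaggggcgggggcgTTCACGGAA
Ifnar2, chr16:91372533-91372782, + strand: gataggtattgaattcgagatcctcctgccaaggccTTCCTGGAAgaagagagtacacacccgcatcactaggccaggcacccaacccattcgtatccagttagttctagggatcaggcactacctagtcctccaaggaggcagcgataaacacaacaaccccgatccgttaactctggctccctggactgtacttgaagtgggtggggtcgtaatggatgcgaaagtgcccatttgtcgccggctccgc
Ifngr2, chr16:91546809-91547058, + strand: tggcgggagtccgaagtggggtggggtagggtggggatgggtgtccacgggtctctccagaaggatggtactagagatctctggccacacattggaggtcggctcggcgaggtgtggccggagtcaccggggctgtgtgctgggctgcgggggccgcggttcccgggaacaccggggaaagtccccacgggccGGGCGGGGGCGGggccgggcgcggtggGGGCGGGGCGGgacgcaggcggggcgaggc

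Ligand genes of the class II receptor family were near or at 0 in these cells. Of 26 such genes, which include Il19, Il20 and Il24 that use other chains and were at 0 throughout, 19 were listed at 0 in all 6 samples and 25 were under 0.5 FPKM in all, and none reached the level for testing. Il10 was the exception, at 0.04, 0.05 and 0.21 FPKM in vehicle and 0.40, 1.09 and 3.24 with DS-5272, where the 3 treated samples were all above the vehicle samples but spread widely. Ifnb1 was listed at 0 in all vehicle samples and at 0.19, 0.11 and 0.06 FPKM with DS-5272, and Ifng was at 0.04, 0.03 and 0.02 and at 0.08, 0.16 and 0.30. Both were chosen after their values were seen.

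Among the related class II receptors, 2 of 6 genes were tested and 1 was higher. This was Il22ra2, a soluble receptor that binds interleukin-22, at 5.20, 3.50 and 4.24 FPKM in vehicle and 15.2, 9.35 and 10.7 with DS-5272, a log2 difference of 1.25 ± 0.20 (limma, adjusted p = 0.0051). Il20ra had a log2 fold change of -0.10 ± 0.41, with 17.1 FPKM in DS-5272 replicate 1 and 5.17 to 10.6 FPKM in all other samples. Ifnlr1, the partner of Il10rb for interferon-lambda, was not tested, at 0.71, 0.11 and 0.14 FPKM in vehicle and 0.74, 0.59 and 0.86 with DS-5272.

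Most of the other JAK and STAT genes were higher as well. Of 10 genes, 9 were tested, 7 were higher and none lower, with a median log2 fold change of 0.74. Jak2, the kinase of Ifngr2, was at 16.2, 16.8 and 17.6 FPKM in vehicle and 30.6, 23.2 and 32.1 with DS-5272, a log2 difference of 0.72 ± 0.14 (limma, adjusted p = 0.0079). Stat2, which acts in type I and lambda interferon signalling, was at 18.6, 17.1 and 14.0 and at 56.8, 32.1 and 49.5 (1.39 ± 0.22, adjusted p = 0.0049). For both genes, every vehicle sample was below every treated sample. Irf9, the DNA-binding partner of STAT2, was at 34.1, 27.8 and 24.9 and at 60.5, 51.3 and 74.8 (1.08 ± 0.17, adjusted p = 0.0052). Stat3, the main factor of IL-10, was at 50.3, 46.8 and 45.4 and at 86.5, 66.7 and 88.7 (0.74 ± 0.13, adjusted p = 0.0066), and Stat6 had a log2 value of 1.12 ± 0.16 (adjusted p = 0.0039). Stat4 had a log2 value of -0.28 ± 0.16 and did not pass (adjusted p = 0.191), nor did Stat5a (-0.28 ± 0.10, adjusted p = 0.055), named after its value was seen, which alone was lower at an unadjusted p under 0.05 from limma. On a common total, 4 of the 9 were higher and 2 lower.

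Among other cytokine receptors that signal through JAK1 or TYK2, more were higher than lower. Of 21 genes, 13 were tested, with 7 higher, 1 lower and a median log2 fold change of 0.90. Il13ra1 and Il4ra, which pair for interleukin-4 and interleukin-13, had the largest changes on the log2(FPKM + 1) scale, with 13.1, 14.7 and 12.9 FPKM in vehicle against 64.7, 53.1 and 71.6 for Il13ra1 (2.13 ± 0.13, adjusted p = 0.00061 from limma). Il4ra went from 20.5 ± 1.30 to 62.7 ± 11.7 FPKM (1.55 ± 0.15, adjusted p = 0.0013). Csf3r, the G-CSF receptor, rose from 46.4 ± 2.64 to 122 ± 20.2 FPKM (1.36 ± 0.14, adjusted p = 0.0016). Crlf2, a chain of the receptor for thymic stromal lymphopoietin, rose from 73.1 ± 8.40 to 137 ± 18.3 FPKM (0.90 ± 0.14, adjusted p = 0.0044). The single lower gene was Il31ra, at 3.62, 1.93 and 1.85 FPKM in vehicle and 1.54, 0.83 and 0.56 with DS-5272 (-0.80 ± 0.26, adjusted p = 0.043), and it was named after its value was seen. The count of lower genes was 0 in 5 of the 6 fits that left out 1 sample, with no filter and with a mean of at least 5 FPKM, and it was 3 without DS-5272 replicate 1.

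Genes that restrain these receptors were less uniform. Of 18 negative regulators and turnover factors, 16 were tested, with 6 higher, 2 lower and a median of 0.30. Socs3, an inhibitor of JAK kinases, was at 4.82, 10.5 and 7.86 FPKM in vehicle and 44.4, 30.8 and 39.9 with DS-5272, a log2 difference of 2.21 ± 0.26 (limma, adjusted p = 0.0024). Usp18, which displaces JAK1 from IFNAR2, was at 11.1, 5.97 and 5.36 and at 46.1, 23.9 and 36.5 (2.12 ± 0.32, adjusted p = 0.0041). Ptpn6 and Ptprc, phosphatases of myeloid cells, rose with log2 values of 1.11 ± 0.16 and 1.18 ± 0.18 (adjusted p = 0.0040 and 0.0041). Csnk1a1, a kinase that acts on IFNAR1 before its degradation, was at 145 ± 5.48 and 153 ± 15.8 FPKM and did not pass (0.07 ± 0.11, adjusted p = 0.625). The lower genes were Pias2 (-0.39 ± 0.10, adjusted p = 0.018) and Ptpn11 (-0.28 ± 0.10, adjusted p = 0.048), both named after their values were seen. With the replicate block Ptpn11 did not pass (adjusted p = 0.053 from limma). The count of lower genes was 0 without vehicle replicate 2 or 3, 1 when any other sample was left out and 1 with eBayes without a trend.

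Genes that the receptors are known to induce were counted in turn. Whether these receptors or others induced them in these cells was not tested. Of 18 type I interferon readouts, 15 were tested and all 15 were higher, with a median log2 fold change of 2.39. Oas3, an RNA sensor, was at 11.2, 6.96 and 6.20 FPKM in vehicle and 59.8, 38.4 and 70.6 with DS-5272 (2.65 ± 0.28, adjusted p = 0.0018 from limma), and Irf7, a factor of the interferon loop, at 55.7, 34.0 and 26.5 and at 278, 147 and 190 (2.39 ± 0.32, adjusted p = 0.0033). Of 14 type II readouts, 10 were tested and 7 were higher, with a median of 1.11. Cxcl9, Ciita, Iigp1 and Nos2 were too low to be tested. Their means were 0.50, 0.00, 0.16 and 0.01 FPKM in vehicle and 0.78, 0.01, 0.61 and 0.10 with DS-5272. Gbp2, a guanylate-binding protein, rose from 3.60 ± 1.79 to 21.7 ± 7.38 FPKM (2.32 ± 0.33, adjusted p = 0.0038), and Cd274, which encodes PD-L1, rose from 5.52 ± 0.42 to 24.9 ± 6.56 (1.97 ± 0.18, adjusted p = 0.0012). Psmb8, a subunit of the immunoproteasome, was at 170 ± 17.7 and 174 ± 15.1 FPKM and did not pass (0.04 ± 0.12, adjusted p = 0.826). The type II count was 4 on a common upper quartile or total and when vehicle replicate 2 or 3 or DS-5272 replicate 1 or 3 was left out. All 6 IL-10 readouts were higher, with a median of 1.38, and Socs3 and Il4ra among them also stand in the lists above. Nfil3, a transcription factor induced by IL-10, was at 18.1, 37.2 and 42.6 FPKM in vehicle and 55.1, 114 and 158 with DS-5272 (1.67 ± 0.45, adjusted p = 0.023 from limma). Replicate 1 was the lowest of each group, as for Jak1 and for the FPKM sum of all genes.

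**Figure D5:**
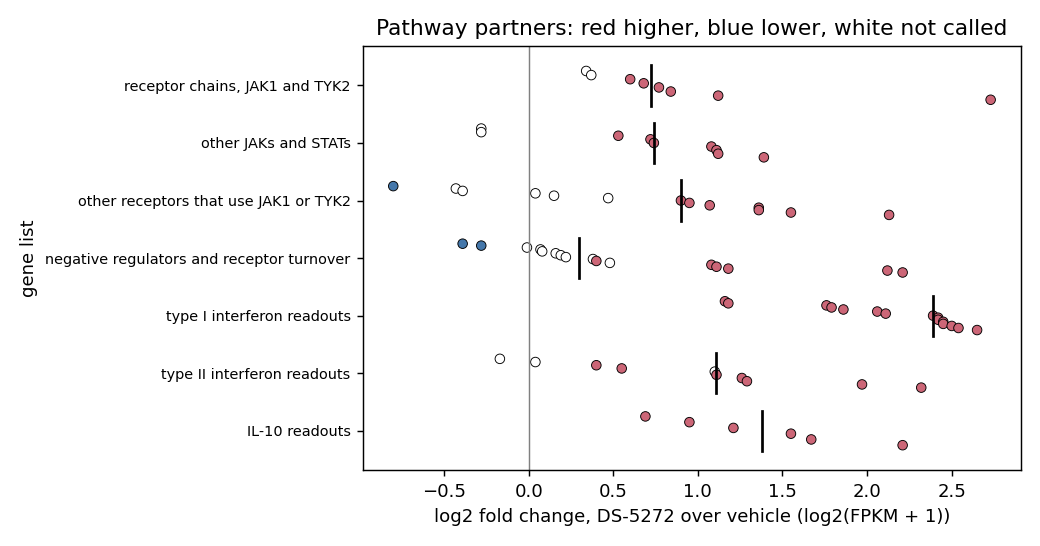
Log2 fold change of every tested gene of the receptor set and of 6 lists of pathway partners, with red for higher, blue for lower and white for not called at an adjusted p of 0.05, and a vertical bar at each list's median. The medians run from 0.30 for the negative regulators to 2.39 for the type I interferon readouts, and the receptor set is at 0.73.

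Genes with a pattern like that of the chains with the largest changes are given as a description over 6 samples that share their groups. By Pearson correlation of log2(FPKM + 1), Il10ra was most like AI839979, Snx1 and Fam49a, each with r = 0.999, and 98 genes were above 0.99. Ifngr2 was most like Evl (r = 0.999), Irf7 (0.997) and Galnt11 (0.997), and 57 genes were above 0.99. Irf7 and Ifngr2 shared the order of the 3 samples within each group, with replicate 1 highest in both.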

How the data were processed

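The deposited values are FPKM per gene. The authors prepared strand-specific libraries, sequenced paired reads of 100 nucleotides, trimmed them with cutadapt 1.8.1, checked them with FastQC and derived FPKM on GRCm38 transcripts with TopHat 2.1.1 and Cufflinks 2.2.1, so length and library size were already divided out and no counts were given. Depth is therefore an estimate with no counting interval.

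Lines with the same symbol were summed, which applied to Ifnar2 and Il10rb. The 3 vehicle and 3 DS-5272 samples, grouped by the labels, were compared with limma 3.58.1 in R 4.3.3 (lmFit and two-sided eBayes with a trend) on log2(FPKM + 1). The 11130 genes that averaged 1 FPKM or more entered, with Benjamini-Hochberg adjustment and a threshold of 0.05. This scale understates the change of low genes. The steps were tested on simulated data. Partner ratios used FPKM without a pseudocount and scipy 1.17.1, with figures from matplotlib 3.10.9.

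Same-numbered samples had deviations that correlated across genes by 0.66, 0.21 and 0.43, all above the limit of 0.1, against -0.58 to 0.34 for other pairs. Vehicle 2 with DS-5272 3 (0.34) and vehicle 3 with DS-5272 2 (0.18) were above that limit as well. The main fit did not pair the samples, and the labels name no shared litter or day. The numbers served as pairs only in the replicate block and in the comparisons of same-numbered samples.

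The 8 genes and all lists were chosen with earlier results of these data known. From each list the text names at most the 3 called genes with the largest change and 2 more with the highest mean, beside the ligands above 0.5 FPKM, Ifnlr1, Jak2, Stat2, Stat3, Irf9 and the tested neighbours of the chromosome 16 cluster. Of the listed genes, 183 had an entry under their symbol and 7 under an older one, while 9 stood in joined entries and 2 had none. The marker genes named with values were chosen after these were seen. Il31ra, Stat5a, Pias2, Ptpn11, Cxcl9, Ciita, Iigp1 and Nos2 were named outside this rule. A gene that it names is not reported here. Promoters came from RefSeq.

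The settings changed in turn were the pseudocount (0.1), the filter (none, or a mean of 5 FPKM), the scaling (a common upper quartile, total or median ratio, or quantile normalization), the replicate block, the eBayes trend, a minimum size of 1 on the log2 scale, the line with the highest mean per symbol, and leaving out each sample.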

Additional observations from a re-analysis of the deposited data

How the results depend on the processing

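Of the results for the 8 genes, their ratios and all genes, 217 alternative values kept direction and side of the threshold or, for counts, stayed within 1.5 times. The exceptions were as follows. All genes called higher went from 2697 to 1713 on a common total and to 978 at a log2 fold change of at least 1, and those called lower from 2451 to 621 at that size. Leaving out 1 sample gave 1623 (without vehicle replicate 2) to 2934 higher and 1389 (without vehicle replicate 2) to 2432 lower. The split of calls was 52.4% higher as deposited, 41.3% on a common upper quartile, 32.5% on a common total and 43.5% after quantile normalization. Of the 8 genes, 2 were higher by at least 1 (Il10ra and Ifngr2). Ifnar1 was at 0.47 on a common upper quartile and 0.35 on a common total, and from 0.50 to 0.74 when 1 sample was left out. Ifngr1 was at -0.03 after quantile normalization, at 0.34 with the replicate block and from 0.27 to 0.48 when 1 sample was left out, and Il10rb was at 0.37 with the block. The block changed no other call of the 8 genes, and the causes of these moves were not tested. Over the lists, 238 counts kept within 1.5 times and 34 moved. The table gives no counts, so low genes such as Il10 and Ifnb1 cannot be given a counting error.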
